A study of Homo sapiens with 6 samples.

Results

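The genes described here are 9 transcription factors that set the fate of myeloid cells, SPI1, CEBPA, CEBPB, CEBPD, CEBPE, IRF8, GFI1, KLF4 and MYB, together with ETS1. They were chosen by name. Every probe set of the array that names 1 gene and carries one of these 10 symbols was taken, which gave 15 of the 41091 probe sets naming 1 gene. Of the 10 genes, 6 had 1 probe set, 3 had 2 and ETS1 had 3. Expression was measured in OCI-AML3, a human acute myeloid leukaemia line with a mutated NPM1 gene, grown in RPMI medium with serum. Cells of the control group (n = 3) received DMSO, the solvent, and cells of the treated group (n = 3) received 1 μM Vorinostat (SAHA), an inhibitor of histone deacetylases. Both were harvested after 24 h, and RNA was hybridised to Affymetrix HG-U133 Plus 2.0 arrays, on which a probe set is a group of probes read as 1 value. All values are from a single cell line, and the sources used here do not state that the replicates came from different cultures. A p-value therefore reflects the scatter of these 6 arrays, part or all of which may be technical.

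Myeloid progenitors become granulocytes or monocytes according to the balance of a small set of transcription factors. SPI1, which encodes PU.1, and CEBPA open the myeloid programme. CEBPE and GFI1 act on the granulocytic branch, IRF8 and KLF4 on the monocytic branch, and MYB keeps progenitors dividing and declines as cells mature. ETS1 belongs to the same family as PU.1 and is best known from lymphocytes and endothelium. Histone deacetylases are cofactors of several of these factors, GFI1 among them, which recruits them to the genes it represses.

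The arrays differed in signal by replicate number. The 2 arrays numbered 1 held 8645 (DMSO) and 8158 (Vorinostat) probe sets at a log2 value of at least 3, and the other arrays held between 2761 and 3731. This level was used throughout as a mark for dim probe sets and was chosen with the data known. Markers of the line's origin were uneven. CTSG and ELANE, proteases of granulocyte precursors, had DMSO means of 8.52 and 7.44 and the leucocyte antigen PTPRC 4.92. The 2 proteases were the brightest of a list of 17 granulocytic genes, of which 3 had a mean of at least 3. AZU1 and PRTN3, proteases of the same list, were above 3 on the number 1 arrays alone. MPO, ANPEP, FLT3, CSF2RA and CSF3R lay between 1.37 and 2.76 on every array, so these blast markers were at the dim end of the scale. MEIS1 was above 3 on the number 1 arrays alone. All 10 T and NK cell markers and all 6 measured B cell markers had means under 3 over the 6 arrays, as did all 6 measured megakaryocyte markers, whose median difference was 0.07. Of 5 measured erythroid markers all had a positive difference (median 0.31, or 0.13 with the probe sets of each gene averaged). Of them 3, ALAS2, EPOR and SLC4A1, were higher in each replicate number, as were 13% of all genes. The B cell markers had 5 positive differences and 1 negative (median 0.06). CD79A, which reached 4.09, and PAX5 were higher in each number. EPOR reached 6.28 and SLC4A1 3.63, whereas HBB, ALAS2 and AHSP stayed at or under 2.45. The unadjusted p of EPOR was 0.231 from limma, and 0.0467 from limma with the replicate number as a block, where 5.37% of all genes were under 0.05.

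With Vorinostat, none of the 15 probe sets passed the threshold of the study, which is a change of over 2-fold with an unadjusted p under 0.05. Over all 54613 probe sets tested, 0.0439% passed it in limma. At an unadjusted p under 0.05, limma called 0 of the 15 and 0.998% of all probe sets, and each member had an adjusted p of 1. The methods' t-test likewise called 0 of the 15 at an unadjusted p under 0.05, and 2.04% of all probe sets. For none of the 15 did the groups of arrays separate, whereas they did for 5.27% of all probe sets. The differences were positive for 6 probe sets and negative for 9, with a median of -0.06 in log2 units. With 15 probe sets and shares this small, a count of 0 does not set these genes apart from the rest of the array. The replicate numbers were treated as pairs, although the check given under the processing shows this for number 1 only. When limma was given that number as a block it still called 0 of the 15 at an unadjusted p under 0.05, against 3.67% of all probe sets.

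**Figure D1:**
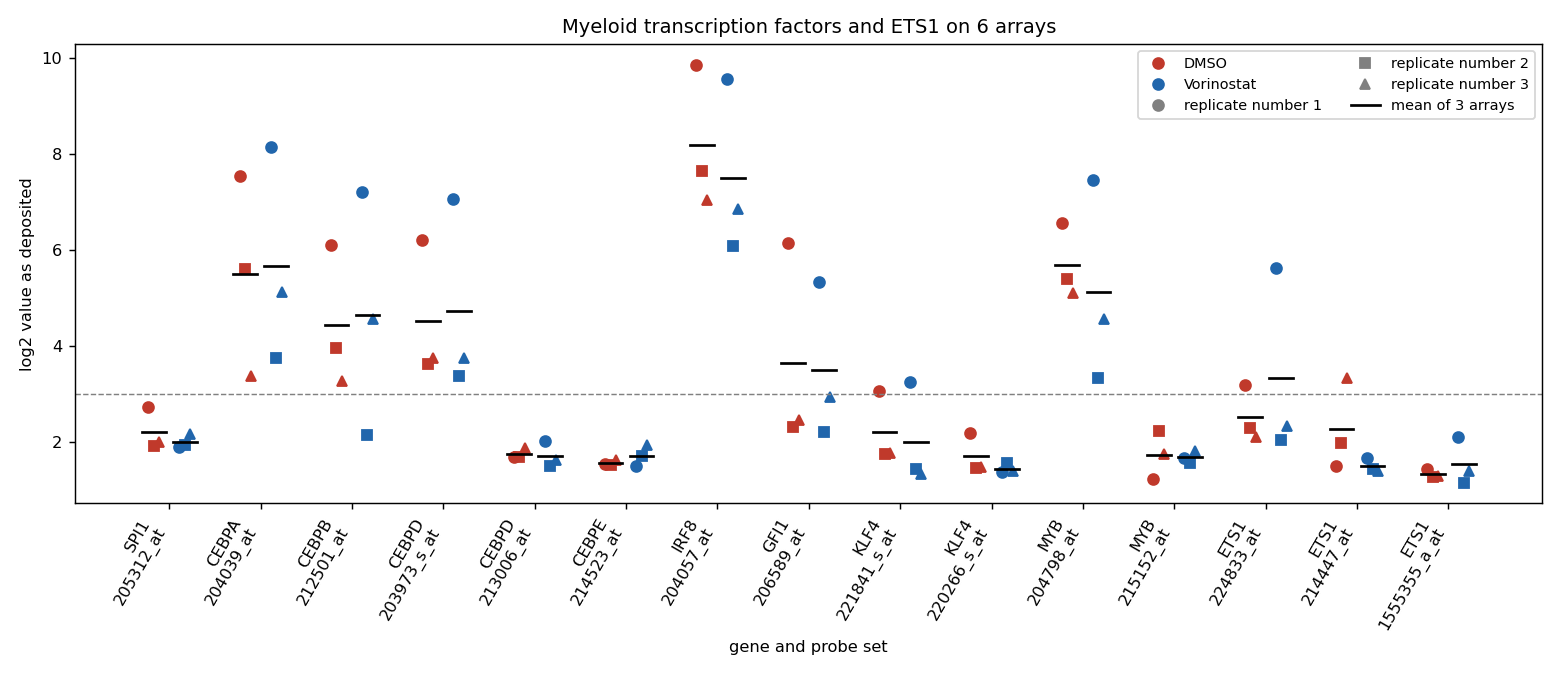
Deposited log2 values (vertical axis) of the 15 probe sets (horizontal axis) on each array, with DMSO in red, Vorinostat in blue, the replicate number shown by the marker, black bars the means of n = 3 and the dashed line the level of 3. The number 1 arrays stand highest for CEBPA, CEBPB, IRF8, GFI1 and the brighter probe sets of CEBPD and MYB, and the treatments overlap for all probe sets.

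SPI1 gave a dim signal. Its only probe set had log2 values of 2.71, 1.90 and 1.99 on DMSO arrays 1, 2 and 3 and 1.88, 1.92 and 2.16 on Vorinostat arrays 1, 2 and 3. DMSO array 1 was the highest and the other 5 arrays lay close together. The difference, Vorinostat minus DMSO, was -0.21 (standard error 0.246, 95% interval -0.83 to 0.40, adjusted p = 1 from limma). Without DMSO replicate 1 it was 0.041, so its negative sign came from that array. As all 6 values lay under 3, this probe set gives little information on the level of PU.1 mRNA in these cells.

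CEBPA, the founding C/EBP factor of granulocyte and monocyte progenitors, was bright but variable. Its probe set read 7.55, 5.59 and 3.36 on the DMSO arrays and 8.13, 3.75 and 5.13 on the Vorinostat arrays, in the order of replicate numbers 1, 2 and 3. Within a treatment the arrays spanned 4.19 (DMSO) and 4.39 (Vorinostat) log2 units, against a difference between the treatments of 0.17 (standard error 1.53, adjusted p = 1 from limma). Its 95% interval ran from -3.66 to 4.0, so that neither a rise nor a fall of several fold was resolved. The replicate numbers disagreed, with 0.59, -1.84 and 1.77 in numbers 1, 2 and 3. Leaving out DMSO replicate 3 gave -0.90 and leaving out Vorinostat replicate 1 gave -1.06.

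CEBPB, a C/EBP factor of macrophages and of granulocyte production under stress, followed the same course as CEBPA. Its probe set read 6.10, 3.95 and 3.27 with DMSO and 7.20, 2.14 and 4.57 with Vorinostat. The highest and the lowest of the 6 values were both from Vorinostat arrays. It differed by 1.10, -1.81 and 1.30 in numbers 1, 2 and 3, with a mean of 0.19 (standard error 1.46, adjusted p = 1 from limma). Without DMSO replicate 2, DMSO replicate 3 or Vorinostat replicate 1 the difference was -0.05, -0.39 or -1.09.

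CEBPD, which is induced in maturing and in inflamed myeloid cells, was read by 2 probe sets of unequal brightness. The bright one had 6.21, 3.63 and 3.74 with DMSO and 7.07, 3.38 and 3.74 with Vorinostat. Its treatments nearly coincided in number 3, where the difference was 0.005, and differed by 0.86 and -0.25 in numbers 1 and 2. The mean difference of 0.20 had a standard error of 1.24, which fell to 0.25 with the replicate number as a block, and the 95% interval then ran from -0.48 to 0.89. A change of 2-fold in either direction lay outside that interval, but inside the interval without the block, which ran from -2.92 to 3.33. A change of that size is thus not excluded. The dim one stayed between 1.49 and 2.01 on all arrays and differed by -0.03. Without DMSO replicate 2, DMSO replicate 3 or Vorinostat replicate 1 the bright probe set gave -0.24, -0.19 or -0.96.

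Of the 2 factors of the granulocytic branch, CEBPE was dim on all arrays and GFI1 on all but the number 1 arrays. CEBPE, needed for late granulocyte maturation and the secondary granules, read 1.54, 1.52 and 1.61 with DMSO and 1.49, 1.71 and 1.94 with Vorinostat. These are values of a dim probe set, and the difference of 0.15 (standard error 0.139, 95% interval -0.19 to 0.50, adjusted p = 1 from limma) describes that signal only. GFI1, a repressor that favours granulocytes over monocytes, read 6.14, 2.30 and 2.46 with DMSO and 5.34, 2.20 and 2.94 with Vorinostat. GFI1 was above 3 on the number 1 arrays alone. It differed by -0.80, -0.10 and 0.48 within the numbers and by -0.14 on average (standard error 1.35, adjusted p = 1 from limma). Leaving out DMSO replicate 1 gave 1.11, and leaving out Vorinostat replicate 2 or 3 gave 0.50 or 0.14.

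Of the monocytic branch, IRF8, a factor that drives monocytes and dendritic cells and holds back neutrophils, had values above 3 on all arrays and KLF4 did not. The IRF8 probe set read 9.86, 7.65 and 7.04 with DMSO and 9.55, 6.08 and 6.86 with Vorinostat. It was lower with Vorinostat in each replicate number, by -0.30, -1.56 and -0.18, and was the only 1 of the 15 probe sets whose difference kept 1 sign, as 27.0% of all probe sets did. The mean difference was -0.68 (standard error 1.17, 95% interval -3.62 to 2.25, adjusted p = 1 from limma). With the replicate number as a block the standard error was 0.32 and the interval -1.56 to 0.19. On its own array IRF8 stood between the 99.5th and the 99.6th percentile of all probe sets on each of the 6 arrays. After quantile normalisation, which gives all arrays the same distribution, its difference was -0.05 (standard error 0.187), with -0.28, 0.31 and -0.19 in numbers 1, 2 and 3, so the 1 sign was lost. Without DMSO replicate 1 or Vorinostat replicate 2 the difference of the deposited values was 0.15 or 0.02.

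The bases before an IRF8 start site are shown because IRF8 was the member with 1 sign of difference. Those before MYB are shown because MYB passed the threshold of the study when the number 1 arrays were left out. Capitals mark GGAA and its reverse complement, the core letters to which factors of the ETS family such as PU.1 and ETS1 bind, searched on both strands. The windows are the 250 bases before a RefSeq start site of GRCh38.p14, on the plus strand, at chr16:85902580-85902829 for IRF8, the first of its 2 windows, and at chr6:135181058-135181307 for MYB.
IRF8: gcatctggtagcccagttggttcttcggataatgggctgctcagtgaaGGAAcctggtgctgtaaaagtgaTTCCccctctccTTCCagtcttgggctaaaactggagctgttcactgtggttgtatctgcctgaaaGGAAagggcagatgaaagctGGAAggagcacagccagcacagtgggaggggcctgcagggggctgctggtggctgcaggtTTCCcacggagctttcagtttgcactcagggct
MYB: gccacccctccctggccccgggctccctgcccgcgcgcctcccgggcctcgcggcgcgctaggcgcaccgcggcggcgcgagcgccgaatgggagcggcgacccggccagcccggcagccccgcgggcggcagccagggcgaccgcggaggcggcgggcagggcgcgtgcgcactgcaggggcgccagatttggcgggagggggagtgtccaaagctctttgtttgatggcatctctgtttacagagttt
The IRF8 window shown held GGAA 6 times, the other IRF8 window 4 times and the MYB window 0 times. The 2 IRF8 windows overlap, so a match in the shared bases is counted in both. Which IRF8 start site these cells use was not tested. Of 35116 windows of the same length over all genes, 92.7% held it at least once, with a median of 3. Windows with it, such as those of IRF8, are thus the common case. Windows without it, such as those of MYB, CEBPA and a CEBPB start site, are fewer. These are matches of letters in these windows only. SPI1, CEBPD and ETS1 have no window shown or counted here.

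KLF4, a zinc finger factor of monocyte maturation, gave dim signals from both its probe sets. The brighter read 3.07, 1.75 and 1.76 with DMSO and 3.24, 1.42 and 1.32 with Vorinostat, with differences of 0.17, -0.33 and -0.44 in numbers 1, 2 and 3. Only the number 1 arrays exceeded 3. The mean difference was -0.20 (standard error 0.659, adjusted p = 1 from limma), and for the other, whose values lay between 1.37 and 2.19, it was -0.27 (standard error 0.227). Without DMSO replicate 1, Vorinostat replicate 2 or Vorinostat replicate 3 the brighter probe set gave 0.24, 0.087 or 0.14, and without Vorinostat replicate 1 it gave -0.82. With both number 1 arrays left out it was -0.39 (95% interval -0.72 to -0.055, unadjusted p = 0.0312 and adjusted p = 0.949 from limma), a change of under 2-fold in values all under 2. KLF4 and MYB were then the 2 of 15 probe sets with an unadjusted p under 0.05, against 3.37% of all probe sets.

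MYB, the proto-oncogene of myeloid progenitors, was bright on all arrays and changed sign between the replicate numbers. Its brighter probe set read 6.56, 5.39 and 5.11 with DMSO and 7.46, 3.32 and 4.57 with Vorinostat. In numbers 2 and 3 both Vorinostat arrays lay below both DMSO arrays, with differences of -2.06 and -0.55, whereas in number 1 MYB was higher with Vorinostat, by 0.90. Over all arrays the difference was -0.57 (standard error 1.12, 95% interval -3.39 to 2.25, adjusted p = 1 from limma). With both number 1 arrays left out it was -1.30 (standard error 0.448, unadjusted p = 0.0398 and adjusted p = 0.949 from limma), which passes the threshold of the study, as 0.527% of all probe sets did. It was then the 1 of 15 member probe sets to pass. Without Vorinostat replicate 1 alone it was -1.74 (unadjusted p = 0.0394 from limma), which again passes, as 0.439% of all probe sets did, in a comparison that keeps the brighter DMSO array 1 on one side only, and without Vorinostat replicate 2 it was 0.33. After quantile normalisation the differences were 0.94, -1.28 and -0.85 in numbers 1, 2 and 3, with the same signs as before. The other MYB probe set was dim, between 1.21 and 2.23, and differed by -0.06.

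Vorinostat array 2 and DMSO array 3 had the least signal, with 2769 and 2761 probe sets at 3 or more. Over the 3379 genes with a mean of at least 3, the median difference was -0.15, -0.73 and 0.20 in numbers 1, 2 and 3, and over 11 housekeeping genes it was 0.02, -1.70 and -0.24. Of the 6 member probe sets with both group means of at least 3, none was higher with Vorinostat in number 2, and 4 of 6 were higher in number 1 and in number 3. CEBPA, CEBPB, IRF8 and MYB differed in number 2 by between -2.06 and -1.56. The brighter CEBPD probe set and GFI1 differed there by -0.25 and -0.10. The median of the housekeeping genes in number 2 was -1.70, with B2M at -2.82 and PPIA at -3.19. Over the 3 numbers all 11 housekeeping genes had a negative difference, with -0.96 for B2M and -1.33 for PPIA. The part of this general shift in the values of the members was not tested.

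**Figure D2:**
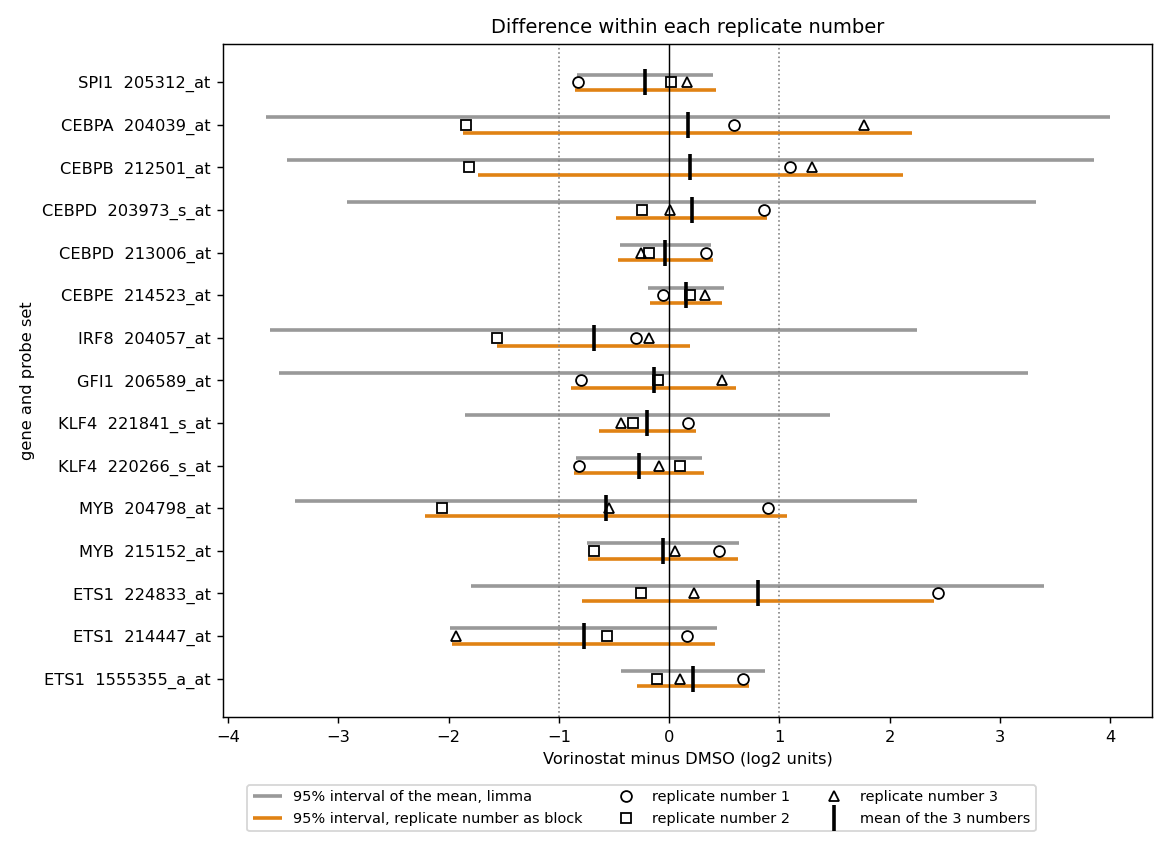
Vorinostat minus DMSO in log2 units (horizontal axis) for each probe set (vertical axis), with open markers for the 3 replicate numbers, a black tick for their mean and bars for the 95% interval from limma, grey without and orange with the replicate number as a block. Dotted lines mark 2-fold. All intervals cross 0, those of CEBPA and CEBPB stay wide with the block, and those of the brighter CEBPD probe set, IRF8 and GFI1 narrow clearly.

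ETS1, which the study lists among its increasing genes on these same samples, was read by 3 probe sets that did not all agree. None of the 3 passed the threshold of the study in limma over all 6 arrays, so the study's call was not recovered here. The study's choice of ETS1 on these arrays means that its direction here is not independent evidence. The brightest read 3.18, 2.28 and 2.09 with DMSO and 5.62, 2.03 and 2.32 with Vorinostat. It was above 3 on the number 1 arrays alone, and Vorinostat array 1 stood apart from the other 5. The difference was 2.44 in number 1 but -0.25 and 0.23 in numbers 2 and 3, with a mean of 0.81 (standard error 1.04, adjusted p = 1 from limma). Without Vorinostat replicate 1 it was -0.34, and without both number 1 arrays -0.013.
The second went the other way, with 1.49, 1.98 and 3.32 on the DMSO arrays and 1.66, 1.42 and 1.39 on the Vorinostat arrays. Here DMSO array 3 was the high one. Its difference was -0.78 (standard error 0.482, adjusted p = 1 from limma), with 0.17, -0.56 and -1.93 in numbers 1, 2 and 3. Without DMSO replicate 1 it was -1.16 with an unadjusted p = 0.0474 from limma, past the threshold of the study as 0.0769% of all probe sets were, and without DMSO replicate 3 it was -0.25. The third stayed between 1.15 and 2.09 and differed by 0.22, with 0.67, -0.11 and 0.097 in numbers 1, 2 and 3, the same signs as the brightest. The mean over the 3 probe sets was 0.08. Within a replicate number, ETS1 differed by over 2-fold in number 1 for the brightest probe set and in number 3 for the second, with opposite signs.

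**Figure D3:**
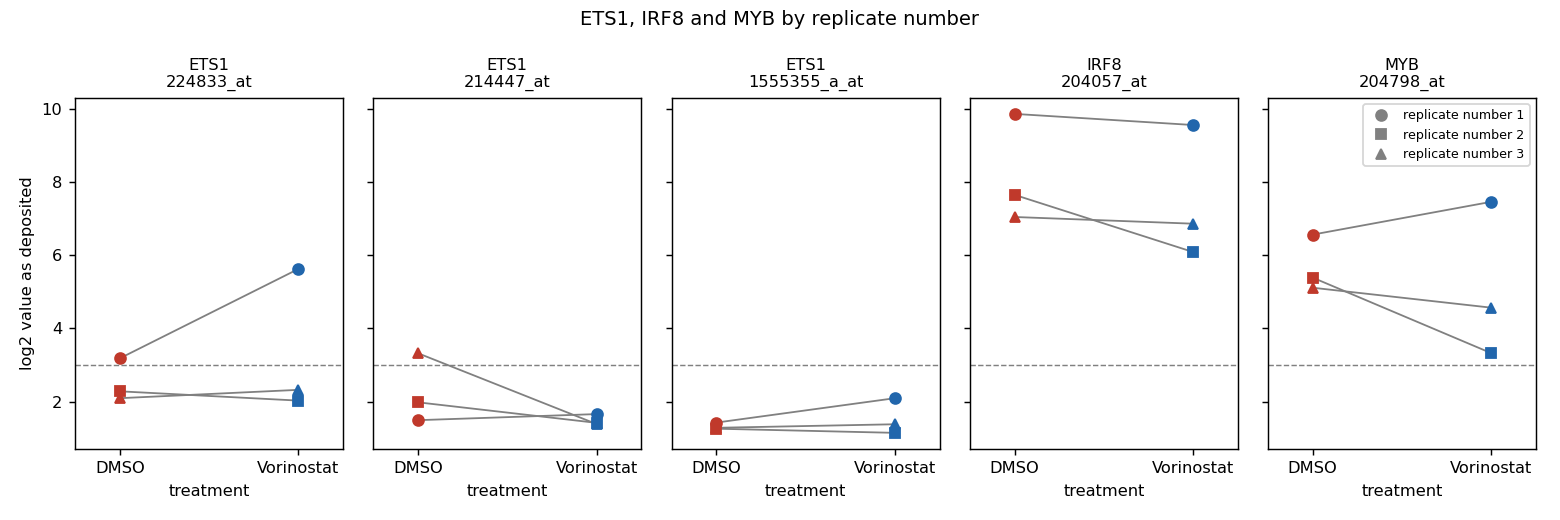
Deposited log2 values (vertical axis) of ETS1 by its 3 probe sets from the brightest on the left, and of IRF8 and MYB, with DMSO (red) and Vorinostat (blue) joined by a line within each replicate number (marker) and the level of 3 dashed. The brightest ETS1 probe set is higher with Vorinostat by 2.44 in number 1, the second lower by most in number 3, and MYB is higher in number 1 and lower in numbers 2 and 3.

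The bright members moved together from array to array. Over the 6 arrays the Pearson correlation between the brightest probe sets of CEBPA, CEBPB, CEBPD, IRF8, GFI1 and MYB lay between 0.82 and 0.95 for the 15 pairs, given as a description since the points share the higher signal of the number 1 arrays. Such values were common. Of the 3378 other genes with a mean of at least 3, 65.2% correlated above 0.9 with IRF8, 46.5% with CEBPA and 25.4% with MYB. The genes nearest to each member were UBQLN1 and SSR2 for CEBPA, MSN and TSPO for CEBPB, SOBP and CDC42EP3 for CEBPD, MRPL12 and CAPRIN1 for IRF8, UHRF2 and RMDN1 for GFI1, and PEBP1 and P4HB for MYB, all with r between 0.99 and 1.00.

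The genes on which these factors act were measured in the same arrays. Of 17 genes of the granulocytic programme 10 had a negative and 7 a positive difference, with a median of -0.07, and of 15 measured genes of the monocytic programme 10 were negative and 5 positive, with a median of -0.03. Over all 19775 genes the median was -0.02. Most genes of both lists were dim. Among those with a mean of at least 3, the median was -1.08 for 3 granulocytic genes and -0.25 for 4 monocytic genes, against -0.23 for all such genes. No gene of either list passed the threshold of the study or an unadjusted p under 0.05 in limma. In the granulocytic list MPO, ELANE, CTSG and CEACAM8 were lower with Vorinostat in each replicate number and MMP9 was higher, which is 4 and 1 of 17 against 13.7% and 13% of all genes. In the monocytic list none kept 1 sign.
ELANE encodes neutrophil elastase, and the study lists it as decreasing on these samples. It read 8.84, 7.0 and 6.49 with DMSO and 7.77, 2.77 and 5.66 with Vorinostat. Its difference of -2.04 (standard error 1.39, adjusted p = 1 from limma) was made of -1.07, -4.23 and -0.83 in numbers 1, 2 and 3, and after quantile normalisation it was -1.85, with all 3 signs kept. CTSG, cathepsin G, differed by -1.08 (standard error 1.03), with -0.31, -1.79 and -1.14, and after quantile normalisation by -0.34 with a positive value in number 2. Both group means of MPO, MMP9 and CEACAM8 lay under 3. Of the monocytic genes LYZ, the lysozyme gene, differed by -0.37 (standard error 1.84), MS4A7 by -0.35 and MNDA, a nuclear protein of myeloid cells, by 0.13. Each of these had differences of both signs among the numbers.

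Relatives and partners of the members gave a similar picture. Of 25 other ETS family genes, 14 were positive and 11 negative (median 0.08). ELK1, an ETS factor that answers to MAP kinases, had the largest difference of the 4 named, 1.26 (standard error 0.736, adjusted p = 1 from limma), with 1.28, 0.43 and 2.09 in the 3 numbers, and 1.56 after quantile normalisation. ELF1 differed by 0.58, ELF2 by -0.74 and ELK4 by -0.39. Of 17 relatives of the C/EBP, MYB, KLF, IRF and GFI1 families 6 were positive and 11 negative (median -0.08), with IRF7, which drives interferon genes, at 1.18, most of it in number 1 (2.67), MYBL2 at -0.38 and IRF3 at -0.24. Of 14 cofactors 5 were positive and 9 negative (median -0.13), among them CBFB, the partner subunit of RUNX1, at -1.05, the demethylase KDM1A at -0.36, and the deacetylases HDAC1 and HDAC2 at 0.42 and 0.29.
Of 18 other haematopoietic factors 11 were positive and 7 negative (median 0.09). LMO2 differed by -0.86, LYL1 by 0.23 and ZFPM1, the cofactor of GATA1, by 1.14. MEF2C, which the study lists as increasing and which is named here after its values were seen, differed by 1.45 (standard error 1.76, adjusted p = 1 from limma), was higher in each number and kept that after quantile normalisation, at 1.94. JUN, a cofactor that the study also lists as increasing, is likewise named after its values were seen. It differed by -0.07, with 0.40, -0.23 and -0.37 in the 3 numbers, and both its group means lay under 3. Among genes with a mean of at least 3, the median was 0.29 for the ETS relatives, -0.26 for the other relatives, -0.20 for the cofactors and -0.12 for the other haematopoietic factors, the last with the sign turned. Of 9 MYB target genes 8 were negative and 1 positive (median -0.23), and the 4 with a mean of at least 3 had a median of -0.60 against -0.23 for all genes that bright. BCL2 differed by -0.70. Of 10 ETS1 target genes 6 were positive and 4 negative (median 0.04), and 0 had a mean of at least 3. Of all these lists 0 genes passed the threshold of the study in limma, or an unadjusted p under 0.05. When the replicate number was a block, CTSG and MPO were lower and MEF2C, ETV1, ELK1 and IRF9 were higher at an unadjusted p under 0.05 from limma, none after adjustment. These are 6 of the 119 measured genes of these lists, or 5.04%, against 5.37% of all genes, which is near the background.

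**Figure D4:**
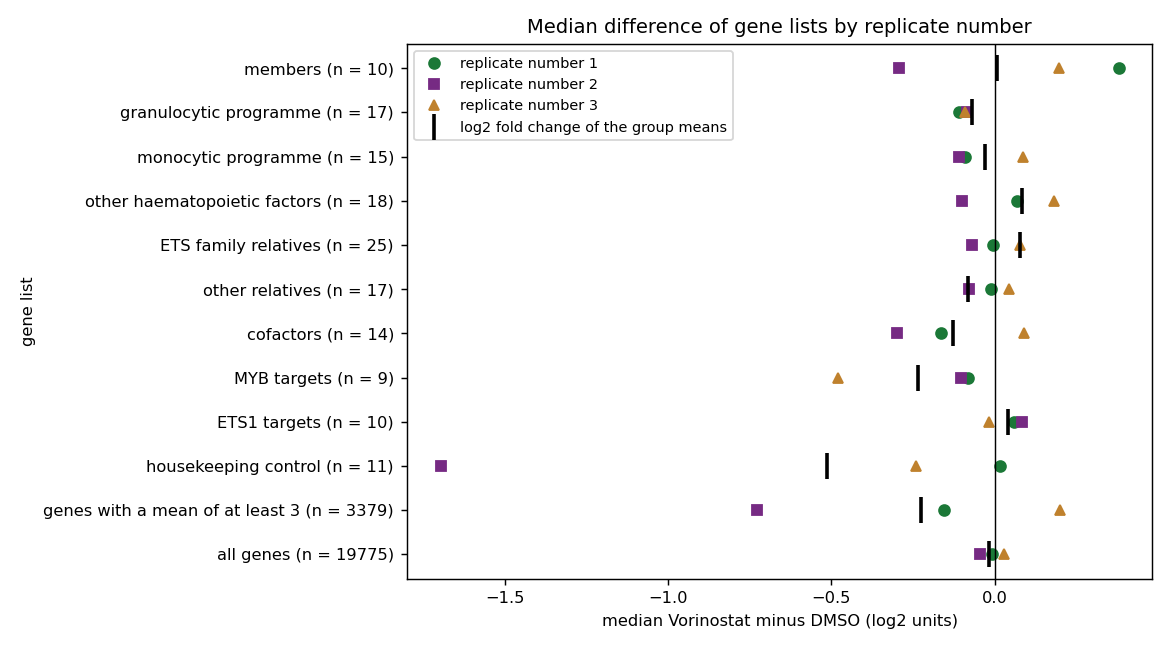
Median difference, Vorinostat minus DMSO in log2 units (horizontal axis), of the 10 members and of each gene list (vertical axis, with the number of genes measured), by replicate number (markers) and for the group means (ticks). The members' median is 0.38, -0.29 and 0.20 in numbers 1, 2 and 3, and the housekeeping genes stand apart in number 2 at -1.70.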

How the data were processed

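The samples were 6 arrays of OCI-AML3 RNA, 3 with DMSO and 3 with 1 μM Vorinostat. The authors deposited 1 log2 value per probe set and array. Partek Genomics Suite is given in the methods, while MAS5 and RMA are listed, with no role or version, in the submitters' processing notes, so the normalisation is known only from the values, whose scale was read as log2. The table holds 54675 probe sets. Control probe sets (62) were left out, and 54613 were tested as deposited, with no filter. A probe set was named from GEO's platform annotation, and the lead probe set of a gene is the one with the highest mean. The main test was limma 3.58.1 (lmFit, eBayes) in R 4.3.3 on both groups without covariates, checked on simulated data, and p-values were adjusted across the whole array by the Benjamini-Hochberg method. The number of arrays limits the precision. Alternatives were quantile normalisation, median centring, a filter on dim probe sets, the methods' t-test, the replicate number as a block, the mean over a gene's probe sets and leaving out arrays. In bulk RNA, fewer cells of a kind and less RNA per cell cannot be told apart.

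Deviations from the group mean of same-numbered arrays correlated over probe sets with r of 0.874, 0.599 and 0.672 for numbers 1, 2 and 3. The numbers were treated as pairs, although numbers 2 and 3 crossed gave 0.594 and 0.695, so the pairing within these 2 numbers is not shown by the values. Members and gene lists were chosen with earlier results of these data known. Besides all member probe sets, named genes are, of each list other than the cell markers, up to 2 in each direction with the smallest unadjusted p among those with a mean of at least 3 in either group, and the 2 genes most correlated with each bright member. Exceptions are stated where they occur. Promoter windows came from RefSeq (GRCh38.p14), which matched 7 of the 10 members. List genes without a probe set naming 1 gene were not analysed here.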

Additional observations from a re-analysis of the deposited data

How the results depend on the processing

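The brightest probe set of every member kept its direction and its side of the threshold of the study under quantile normalisation. The mean over a gene's probe sets, where it has several, kept the direction too. The replicate block, the methods' t-test and the filter on means of at least 3 leave the mean difference itself unchanged. Centring of each array on its median moved every probe set by the same small amount. As no member difference reached 2-fold, these settings could turn neither a direction nor a call, and agreement under them is no support. The size of IRF8 moved most under quantile normalisation, from -0.68 to -0.05. The replicate block left the member count past the threshold at 0, as it had to with no member difference of 2-fold. With both number 1 arrays left out, 1 member probe set passed, MYB at -1.30, and the sign turned for SPI1 (0.093), CEBPA (-0.038), CEBPB (-0.26), CEBPD (-0.12), GFI1 (0.19) and ETS1 (-0.013). When 1 array was left out, 0 to 1 member probe sets passed, and the differences ranged from -0.37 to 0.041 for SPI1, -1.06 to 1.19 for CEBPA, -1.09 to 1.44 for CEBPB, -0.96 to 1.05 for CEBPD, -1.71 to 0.15 for IRF8, -1.06 to 1.11 for GFI1, -0.82 to 0.24 for KLF4, -1.74 to 0.33 for MYB and -0.34 to 1.45 for ETS1, whereas CEBPE stayed between 0.04 and 0.26. No member had an adjusted p under 0.05 under any of these settings. Over all probe sets the count past the threshold was 24, and became 117 after quantile normalisation, 227 with the replicate block, 288 without both number 1 arrays, 5 by the methods' t-test, 1 among probe sets with a mean of at least 3, and between 21 and 240 when 1 array was left out. The cause of these shifts was not tested. Low signal limits SPI1, CEBPE, KLF4, ETS1 and the dimmer probe sets of CEBPD and MYB, whose sizes of change are poorly measured. GFI1 is limited likewise outside the number 1 arrays.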
